A study of Homo sapiens with 13 samples.

Results

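The genes described here were 9 genes of HLA and antigen presentation, out of 19894 protein-coding genes of GENCODE release 44 mapped to hg19. They were chosen by name, with earlier results of these data known. The 5 class I heavy chain genes (HLA-B, HLA-C, HLA-E, HLA-F and HLA-G) were set beside B2M, which encodes the light chain, and beside 3 class II genes (HLA-DRA, HLA-DRB1 and CIITA). The cells were MDA-MB-231, an established triple-negative breast cancer line of mesenchymal-like character, all grown under standard culture conditions with no treatment, so there was 1 condition and no group to compare it with. ChIP-seq of this line had been made for H3K4me1, H3K4me3, H3K27ac, RNA polymerase II (Pol II) and CTCF, in 2 libraries each. For p300/CBP, immunoprecipitations had been pooled into 1 library. The 2 Input libraries among the 13 samples were not analysed here. The data were 6 lists of peak positions, 1 for each antibody, called on merged replicates and holding no height, count or p-value. Depth is therefore unknown, no spread between replicates can be given, and no difference below has a test.

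Class I molecules, made of an HLA heavy chain and beta-2 microglobulin, show peptides from inside the cell to CD8+ T cells and are found on nearly all nucleated cells. HLA-B and HLA-C are classical, highly polymorphic heavy chains, whereas HLA-E, HLA-F and HLA-G are less variable, HLA-E being a ligand of NKG2A on natural killer cells and HLA-G being best known from the placenta. Class II molecules, of which HLA-DRA and HLA-DRB1 encode the alpha and beta chains of HLA-DR, present peptides taken up from outside and are normally restricted to professional antigen-presenting cells and to cells exposed to interferon gamma. CIITA is the transactivator that class II transcription needs, and NLRC5 is its counterpart for class I. Both act through proteins bound at a shared promoter module, in which RFX factors, CREB/ATF factors and NF-Y sit side by side. H3K4me3 and H3K27ac mark active promoters, H3K4me1 marks enhancers and promoter flanks, and CTCF binds insulators and loop anchors.

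The promoters of 4 members are shown as examples of genes with either all or none of the marks of an active promoter. HLA-C and HLA-E had peaks of H3K4me3, H3K27ac and Pol II over the transcription start site (TSS), and HLA-G and HLA-DRB1 had none of the 3 there. HLA-B, HLA-F and B2M also had all 3 over the TSS and are not shown. The canonical TSS is that of the transcript which Ensembl marks as canonical for the gene. The sequences are reference bases of GRCh37 (hg19) from within the 250 bases before the canonical TSS, read 5′ to 3′ on the strand of the gene and without exons of coding genes. They are not the alleles of MDA-MB-231. Capitals mark matches, on either strand, to CCAAT (the core of the NF-Y site), TGACG (part of a CREB/ATF site) and TGANTCA (the AP-1 site). They also mark GAAA and GAAA with any 2 bases between (a strict interferon response pattern). GGG and CC with any 5 bases between (a loose NF-κB pattern) are marked too. Where matches of several motifs touch or overlap, they form 1 run of capitals. The stretches lie at chr6:31239908-31240119 (minus strand) for HLA-C, chr6:30457036-30457285 (plus strand) for HLA-E, chr6:29795352-29795509 (plus strand) for HLA-G and chr6:32557626-32557875 (minus strand) for HLA-DRB1.
HLA-C: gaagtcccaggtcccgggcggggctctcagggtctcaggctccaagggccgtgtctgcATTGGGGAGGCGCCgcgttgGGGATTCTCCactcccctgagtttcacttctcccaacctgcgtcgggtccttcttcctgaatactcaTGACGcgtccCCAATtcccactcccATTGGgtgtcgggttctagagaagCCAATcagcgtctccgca
HLA-E: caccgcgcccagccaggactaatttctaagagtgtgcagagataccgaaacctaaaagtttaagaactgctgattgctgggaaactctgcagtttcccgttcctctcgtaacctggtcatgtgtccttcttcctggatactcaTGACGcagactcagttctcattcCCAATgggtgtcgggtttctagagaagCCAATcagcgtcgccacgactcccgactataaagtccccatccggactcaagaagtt
HLA-G: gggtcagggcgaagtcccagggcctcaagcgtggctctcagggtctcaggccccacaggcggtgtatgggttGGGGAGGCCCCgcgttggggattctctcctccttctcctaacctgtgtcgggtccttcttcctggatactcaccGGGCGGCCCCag
HLA-DRB1: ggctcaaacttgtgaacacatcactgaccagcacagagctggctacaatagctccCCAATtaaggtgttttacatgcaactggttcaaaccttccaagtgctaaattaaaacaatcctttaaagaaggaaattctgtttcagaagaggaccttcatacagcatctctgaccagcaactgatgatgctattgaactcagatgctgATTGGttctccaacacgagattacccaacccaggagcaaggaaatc

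All 5 class I heavy chain genes held CCAAT in the 250 bases, at 56 or 57 bases before the TSS on the strand of the gene, whereas 34.3% of all coding promoters held it anywhere in that stretch. TGACG was found in HLA-B, HLA-C and HLA-E, starting 106, 105 and 107 bases before the TSS, against 25.4% of all promoters. B2M held TGACG too, whereas HLA-F and HLA-G had no match to it. Among the class I genes and B2M, the strict interferon response pattern, present in 2.84% of all promoters, was found in HLA-F and B2M. Other forms of an interferon response element were not searched for, so a gene without a match may still hold one. The NF-κB pattern was found in HLA-B, HLA-C, HLA-G and B2M and in 65.4% of all promoters, and TGANTCA was found in none of the class I heavy chain genes or B2M and in 4.69% of all promoters. Matches of the class II genes are not described in full, so nothing is read from these motifs about one class against the other. A match is a description of letters and not of a bound factor.

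A peak was counted at a promoter when it shared at least 1 bp with a 3 kb window centred on the canonical TSS. At this window, 4 of the 5 class I heavy chain genes held H3K4me3, H3K27ac and Pol II together, and so did B2M, whereas of the 3 class II genes CIITA alone did. Over all coding genes, 56.2% of windows held the 3 together. H3K4me3 peaks were at 4 of 5 class I, 1 of 1 light chain and 2 of 3 class II windows, against 62.7% of all windows (95% Wilson interval 62.0 to 63.4). H3K27ac gave the same counts against 61.4% (60.7 to 62.1). Pol II peaks were at 4 class I windows, at B2M and at 1 class II window, against 58.4% (57.7 to 59.1). The intervals cover counting error only. Each of these lists marked 6 or 7 of the 9 members, so that the members as a whole stood near the background, and what separated them was which genes were missing.

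The missing genes were HLA-G and HLA-DRB1 for both histone marks, with HLA-DRA missing as well for Pol II. H3K4me1 was at all 5 class I windows and at 2 of 3 class II windows but not at B2M, against 59.3%. CTCF was at the windows of HLA-C and B2M, against 17.6% (17.0 to 18.1). No member had a p300/CBP peak at its window, and the list reached only 0.769% (0.657 to 0.900) of all windows, so a count of 0 of 9 says little. The windows of the members do not overlap each other. With few genes, most of them in 1 chromosomal cluster, in 1 cell line, class I and class II were not tested against each other.

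**Figure D1:**
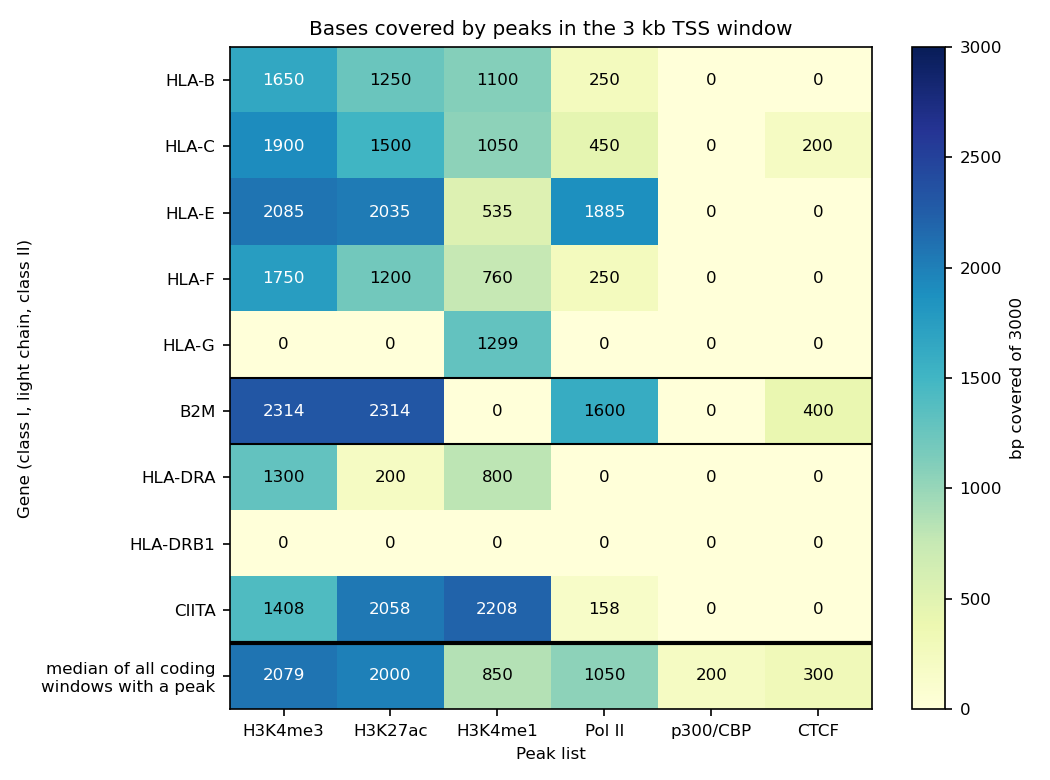
Bases of the 3 kb TSS window covered by peaks, for the 9 members (lines) and the 6 lists (columns); the last line is the median over all coding windows that hold a peak of that list. HLA-E and B2M were covered by Pol II over 1885 and 1600 bp, HLA-B, HLA-C and HLA-F over 250 to 450 bp, and HLA-G, HLA-DRA and HLA-DRB1 over 0 bp.

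How much of the window the peaks covered separated the class I genes further. HLA-E, on the plus strand at chr6:30457286-30461971, had 2085 bp of H3K4me3, 2035 bp of H3K27ac and 1885 bp of Pol II in its window. Its Pol II coverage was above the upper quartile of windows with a Pol II peak (1750 bp), and its other 2 values were near the medians of 2079 and 2000 bp. The Pol II peak was 5900 bp wide, ran from 385 bp before the TSS to 5514 bp after it and covered 100% of the gene, all 8 exons included. No other member had a Pol II peak over its whole length.

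HLA-B (chr6:31321649-31334844, minus strand), HLA-C (chr6:31236526-31239907, minus strand) and HLA-F (chr6:29690552-29706305, plus strand) shared a narrower form. Pol II covered 250 bp at HLA-B, 450 bp at HLA-C and 250 bp at HLA-F, all under the lower quartile of 650 bp. H3K4me3 covered 1650, 1900 and 1750 bp of the same windows, under the median of 2079 bp and above the lower quartile of 1577 bp. H3K27ac covered 1250, 1500 and 1200 bp, so that HLA-B and HLA-F lay under the lower quartile of 1450 bp and HLA-C just over it. These 3 Pol II peaks lay on the TSS, from 44 bp before it to 205 bp after it at HLA-B, from 231 bp before to 218 bp after at HLA-C and from 60 bp before to 189 bp after at HLA-F. HLA-C had another Pol II peak of 500 bp beginning 3.72 kb after the TSS, past the end of the gene. Widths depend on the threshold and on how gaps were joined, and are not signal heights.

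H3K4me1 lay beside the TSS and not on it at the class I genes. At HLA-B it formed a 750 bp peak that ended 345 bp before the TSS and a 350 bp peak that began 756 bp after it. At HLA-C it formed a 700 bp peak that ended 682 bp before and a 350 bp peak that began 769 bp after, so that both genes had H3K4me3 in the middle and H3K4me1 on either side. HLA-E and HLA-F had it downstream of the TSS in the window, from 965 and 740 bp on. The canonical TSS lay inside an H3K4me1 peak at 0 of 5 class I genes, not at B2M, and at HLA-DRA and CIITA among the 3 class II genes, against 8.37% of all coding genes. By the same measure the TSS lay inside an H3K4me3 peak at 4 class I genes, B2M and HLA-DRA (52.2% of all genes) and inside an H3K27ac peak at 4 class I genes, B2M and CIITA (47.6%). It lay inside a Pol II peak at 4 class I genes and B2M and at no class II gene (51.2%). No member had its TSS inside a CTCF peak (4.08%) or a p300/CBP peak (0.131%).

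HLA-B and HLA-C differed in CTCF. HLA-C carried a 200 bp CTCF peak from 219 to 418 bp after the TSS, over exon 2 and intron 1. HLA-B carried none in its window but had a 450 bp CTCF peak with its end 9.70 kb upstream of the canonical TSS. There, GENCODE places 5 further HLA-B starts, from 9677 to 9888 bp upstream, which is why the annotated gene is 13196 bp long. All 5 of these starts lay inside an H3K4me3 peak of 900 bp and an H3K4me1 peak of 950 bp, 4 of them lay inside the CTCF peak, and none lay inside an H3K27ac or Pol II peak. The HLA-B starts clustered around the canonical one, from 9 bp before to 21 bp after it, lay inside H3K4me3, H3K27ac and Pol II peaks.

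HLA-G (chr6:29794744-29798902, plus strand) stood apart from the other class I genes. Its window held a single peak, H3K4me1 of 1300 bp that ended 202 bp before the TSS, covering 1299 bp of the window and the upstream starts annotated 846 and 858 bp before the canonical one. H3K4me1 as the window's only mark was found at 4.29% of all coding genes. The nearest H3K4me3 peak was 34.7 kb away, the nearest H3K27ac peak 58.9 kb and the nearest Pol II peak 59.5 kb. From the TSS the gene body was free of every list up to a CTCF peak 6.95 kb downstream, in a peak-free stretch of 7150 bp. The H3K4me1 peak ended inside the promoter stretch printed above.

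B2M (chr15:45003556-45011049, plus strand), outside the HLA region, had the widest coverage of H3K4me3 and H3K27ac among the members, 2314 bp of its window in both lists. Its H3K4me3 peak was 3200 bp wide, its H3K27ac peak 3000 bp and its Pol II peak at the TSS 1600 bp, and 2 more Pol II peaks of 750 and 2450 bp lay in the gene and over its end. H3K4me1 was not in the window and began 2.04 kb after the TSS, in intron 1. A 400 bp CTCF peak ended 565 bp before the TSS. The TSS of PATL2 lies 0.194 kb away, so these peaks cannot be divided between the 2 genes, whereas the Pol II peaks further into B2M do not reach the PATL2 start.

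**Figure D2:**
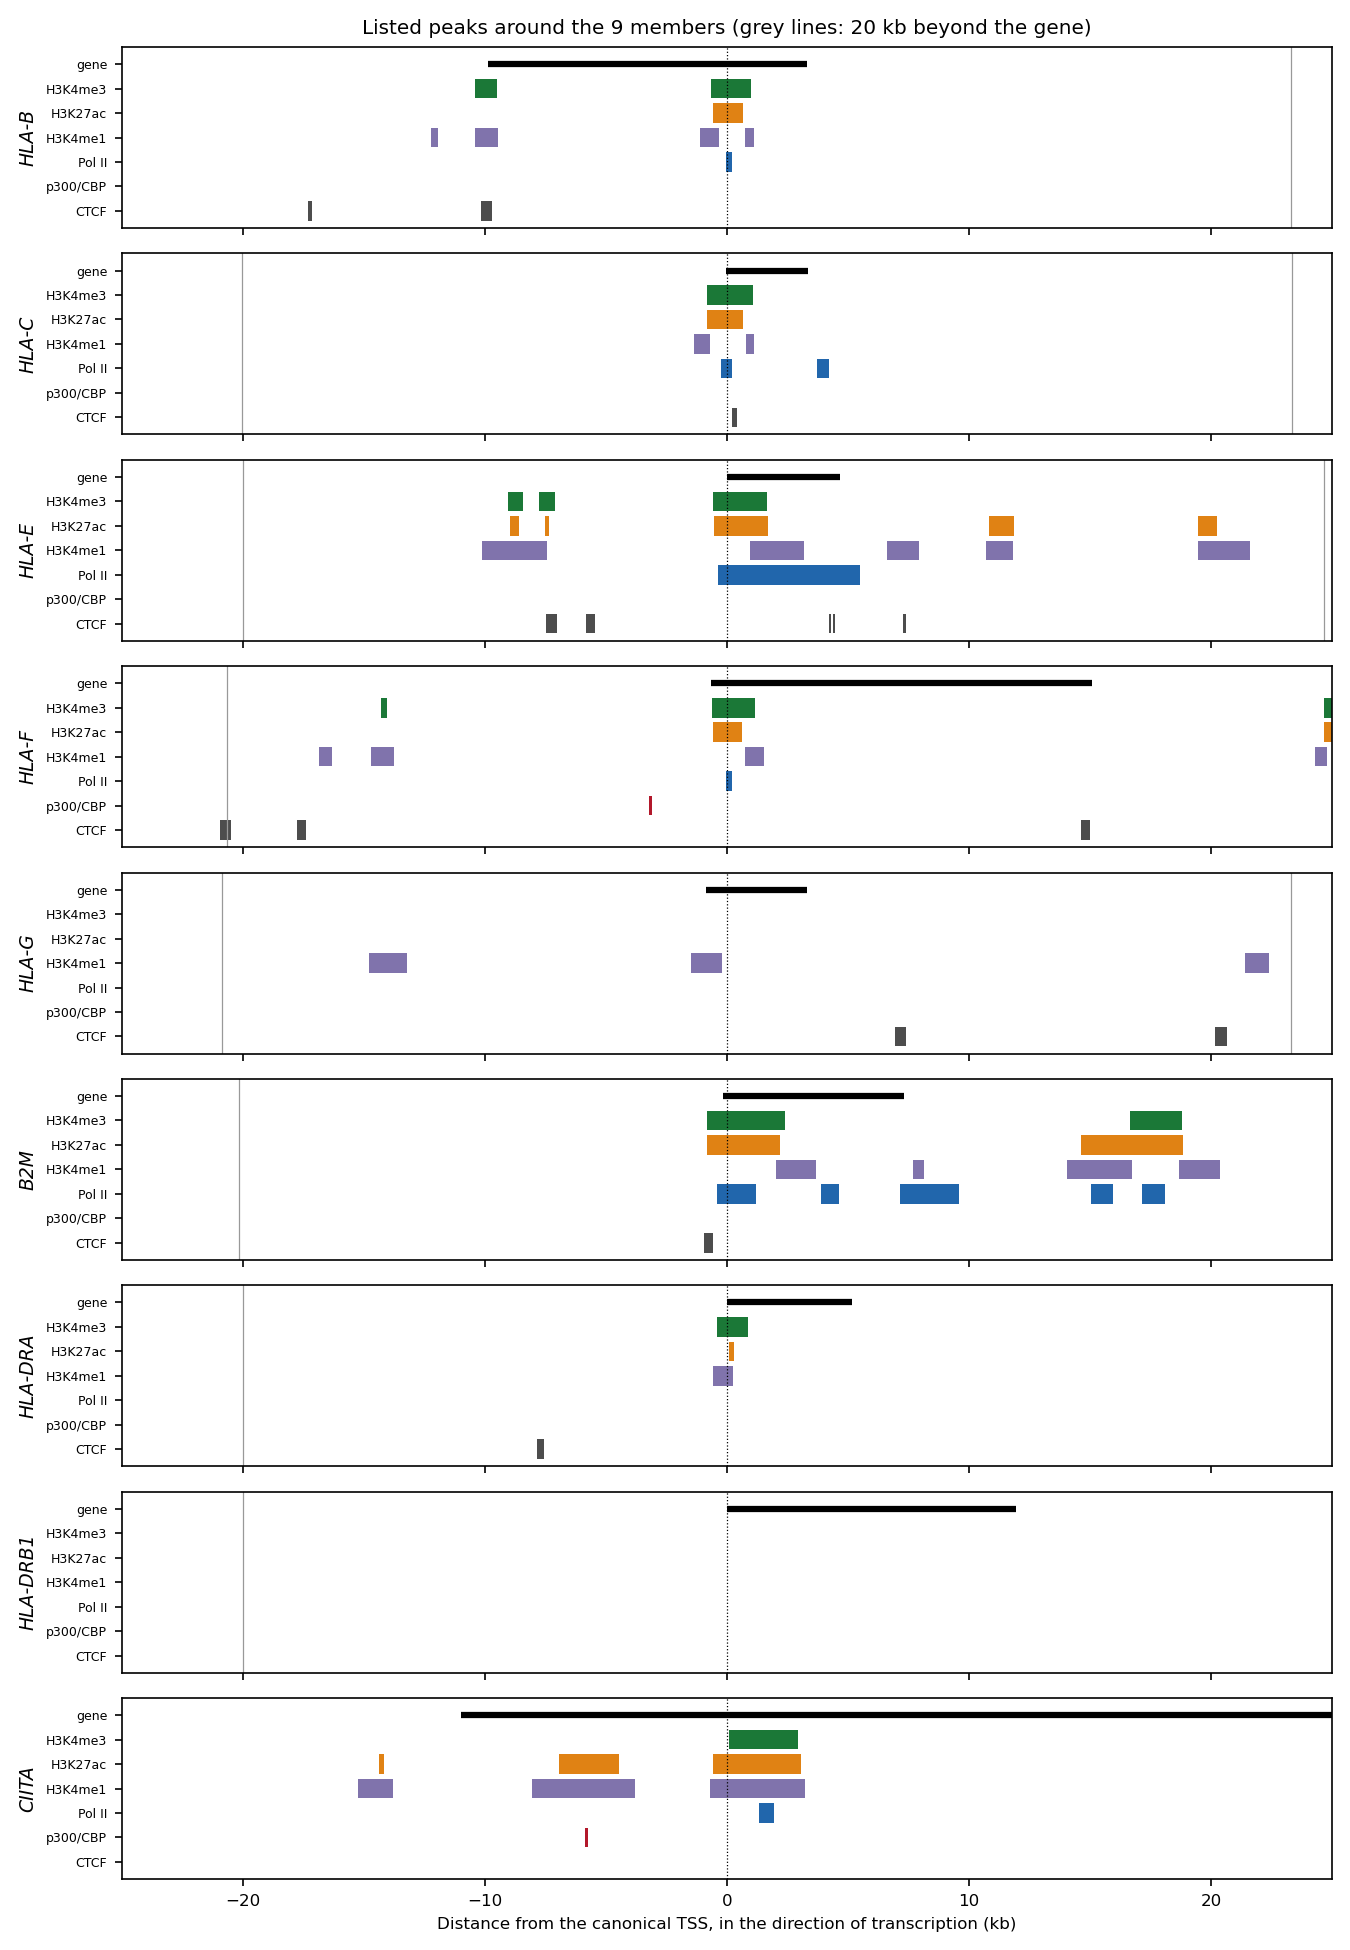
Peaks of the 6 lists (coloured bars) within the gene and 20 kb either side of it, for each of the 9 members, against distance from the canonical TSS in kb; the black bar is the annotated gene, the dotted line the TSS and grey lines the ends of the 20 kb flanks where they fall within the plotted 25 kb. HLA-E shows the single Pol II peak of 5900 bp over the gene, HLA-G shows H3K4me1 and CTCF alone, and HLA-DRB1 shows no peak.

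HLA-DRA (chr6:32407655-32412823, plus strand) had a promoter mark without Pol II. H3K4me3 covered 1300 bp, from 413 bp before the TSS to 886 bp after it, under the lower quartile of windows with this mark. H3K4me1 covered 800 bp, from 563 bp before to 236 bp after. The TSS thus lay inside both marks at once, as it did for 3.96% of all coding genes. H3K27ac was a single peak of 200 bp that began 87 bp after the TSS, and at most 1.06% of the windows with an H3K27ac peak had as little of it. The nearest Pol II peak lay 184 kb away and the nearest p300/CBP peak 141 kb away. H3K4me3 and H3K27ac together without Pol II were found at 3.79% of coding windows.

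HLA-DRB1 (chr6:32545679-32557625, minus strand) had no peak of any list in its TSS window, its gene body or the 20 kb on either side. No peak in the window was found for 28.0% of coding genes and no peak in the gene with both flanks for 5.07%. The nearest peak was H3K4me3, 20.3 kb upstream of the TSS and so just outside the flank. The nearest peaks of the other 5 lists were 111 kb (CTCF) to 291 kb (p300/CBP) away. HLA-DRB1 lay in a stretch of 169350 bp without any listed peak, chr6:32408551-32577900, which began where the H3K4me3 peak of HLA-DRA ended and which also held the TSS of HLA-DRB5. This stretch was the second longest of 408 such stretches in the major histocompatibility complex (MHC), taken as a 5 Mb stretch that held all 7 HLA members and made up 2.92% of chromosome 6. The longest, of 193750 bp, held the TSSs of the olfactory receptor genes OR14J1, OR5V1 and OR12D3.

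CIITA (chr16:10960079-11036878, plus strand), on another chromosome than the HLA genes, had H3K4me3, H3K27ac, H3K4me1 and Pol II in its window. H3K4me1 covered 2208 bp, above the upper quartile of 1300 bp, and H3K27ac covered 2058 bp. H3K4me3 covered 1408 bp and Pol II 158 bp of the window, both under their lower quartiles. The peaks were not centred on the canonical TSS. The H3K4me3 peak of 2850 bp began 92 bp after it, and the Pol II peak of 600 bp ran from 1342 to 1941 bp after it, in intron 1.

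CIITA is known for alternative promoters used by different cell types and after interferon gamma, and the annotation was read start by start. The start 1767 bp downstream of the canonical one, belonging to 2 transcripts, lay inside H3K4me3, H3K27ac, H3K4me1 and Pol II peaks. The canonical start and the starts within 24 bp of it lay inside H3K27ac and H3K4me1 peaks and outside H3K4me3 and Pol II peaks. The upstream starts, 10942 and 10980 bp before the canonical one, lay in no peak. Between these and the canonical TSS, an H3K4me1 peak of 4250 bp reached from 8.06 to 3.81 kb before the TSS and overlapped an H3K27ac peak of 2500 bp and a p300/CBP peak of 100 bp. Starts of the annotation were not assigned to named promoters here. Further Pol II peaks from 48.9 to 58.7 kb downstream lay over exon 20 of CIITA, and the nearest coding TSS to each was that of the neighbouring gene DEXI. Reads at such places are not assigned to a gene by ChIP-seq.

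**Figure D3:**
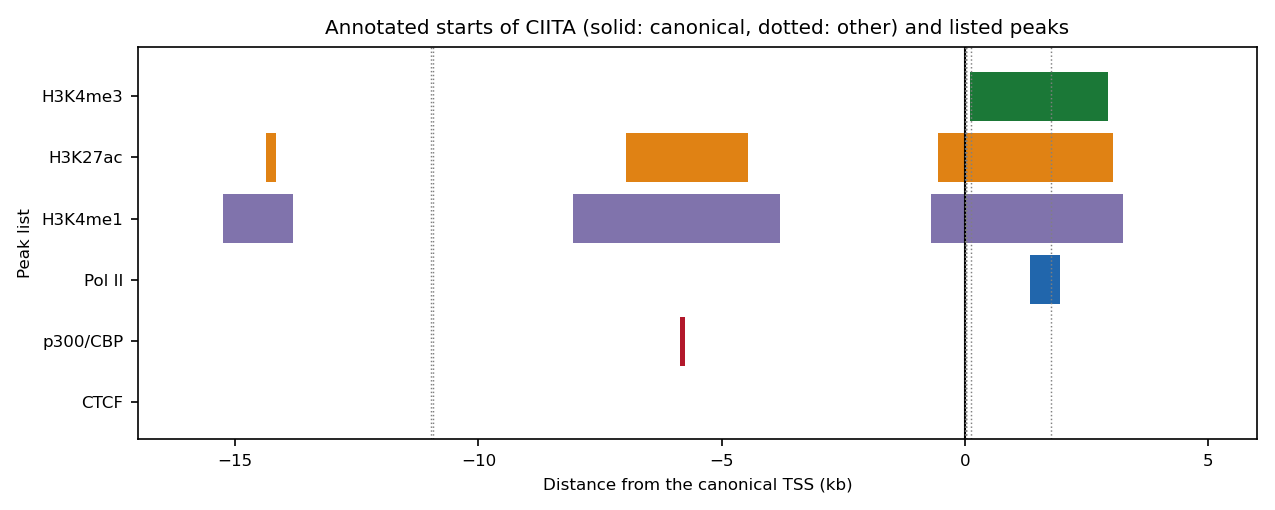
Peaks of the 6 lists (bars) around the annotated starts of CIITA, against distance from the canonical TSS in kb; the solid line is the canonical TSS and dotted lines are the other annotated starts. The Pol II peak of 600 bp covers the start at 1767 bp and not the canonical TSS, and the upstream starts 10942 and 10980 bp before it lie in no peak.

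Gene bodies were taken from the first to the last annotated base. H3K4me3 and H3K27ac peaks each touched 7 of 9 bodies (69.3% and 69.8% of all coding genes), H3K4me1 touched 8 (76.5%), Pol II 6 (63.6%), CTCF 5 (50.6%) and p300/CBP 1, that of CIITA (10.9%). Pol II covered 100% of HLA-E, 30.6% of B2M, 8.72% of CIITA, 7.60% of HLA-C, 1.89% of HLA-B and 1.59% of HLA-F. It covered 0% of HLA-G, HLA-DRA and HLA-DRB1. The CIITA share came mostly from peaks whose nearest coding TSS was that of DEXI. One such peak, from 64.4 to 65.7 kb after the CIITA TSS, lay over the DEXI TSS itself. Only the 600 bp peak in intron 1 was nearest to the CIITA TSS. H3K4me1 covered 46.9% of HLA-E and between 4.76% (HLA-DRA) and 22.0% (B2M) of the other genes that it touched. The bodies differ in length from 3382 bp (HLA-C) to 76800 bp (CIITA), so a percent weighs the promoter of a short gene more.

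With 20 kb added on either side, H3K4me3 and H3K27ac still reached 7 of 9 members (80.3% and 81.3% of all genes), H3K4me1 8 (88.3%), Pol II 6 (74.7%), CTCF 8 (81.6%) and p300/CBP 2 (17.1%). The p300/CBP peaks were the CIITA one and a peak of 100 bp that began 3.21 kb before the TSS of HLA-F. The nearest p300/CBP peak to HLA-B, HLA-C and HLA-E was 203, 288 and 253 kb away. Candidate active enhancers (cAEs) were taken as H3K4me1 peaks that overlapped an H3K27ac peak and no coding TSS window, and candidate inactive enhancers (cIEs) as such peaks without any H3K27ac peak. This adapts the study's definition, which rested on RefSeq promoters and on a low content of H3K27ac for cIEs, so the numbers are not those of the study. By these definitions, cAEs lay near HLA-E (3), B2M (3), HLA-F (2) and CIITA (2) and near none of HLA-B, HLA-C, HLA-G, HLA-DRA and HLA-DRB1. The 10 cAEs and 15 cIEs near the members were part of 24323 cAEs and 49286 cIEs in the genome.

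HLA-E had its cAEs on both sides, from 10.1 to 7.44 kb before the TSS and from 10.7 to 11.8 and 19.5 to 21.6 kb after it. HLA-F had its cAEs from 24.3 to 24.8 and 25.9 to 28.8 kb after the TSS, beyond its 3′ end and beside H3K4me3 and Pol II peaks that lie there too. B2M had 1 in intron 1 and 2 that lie between 14.0 and 20.4 kb after the TSS. Each of these B2M elements overlapped an H3K4me3 peak. Pol II peaks of 900 and 950 bp lay within or between the latter 2. An overlap of 1 bp with H3K27ac was enough for a cAE. The intron 1 element began 2.04 kb after the TSS. It met only the end of the 3000 bp H3K27ac peak over the TSS, which reached 2.19 kb after it. Of the 2 near CIITA, the one described above was the only cAE of the 10 that overlapped a p300/CBP peak. HLA-B had 3 cIEs, of which the nearest to the gene was the H3K4me1 peak over its upstream starts, and HLA-G had 2. The lists give no contact between these elements and the genes.

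Genes with the identical set of lists in their TSS windows were counted, and the nearest 3 on the same chromosome were named for each member. HLA-B, HLA-E, HLA-F and CIITA shared H3K4me3, H3K27ac, H3K4me1 and Pol II with 36.2% of coding genes, nearest to HLA-B being MICA (46.4 kb), MICB and DDX39B, nearest to HLA-E GNL1 (67.0 kb), PRR3 and ABCF1, nearest to HLA-F GABBR1 (90.3 kb), POLR1H and PPP1R11, and nearest to CIITA DEXI (65.3 kb), CLEC16A and NUBP1. HLA-C, which had CTCF in addition, shared its set with 11.6% of genes, the nearest being TCF19 (114 kb), PSORS1C2 and PSORS1C1. B2M shared H3K4me3, H3K27ac, Pol II and CTCF with 1.95%, the nearest being PATL2, SPG11 (47.9 kb) and SQOR. HLA-DRA shared H3K4me3, H3K27ac and H3K4me1 with 2.02%, the nearest, C6orf15, being 1330 kb away and followed by DDR1 and ETV7. HLA-G had MUC21 (1160 kb), MUC22 and GPX5 as nearest genes with H3K4me1 alone. HLA-DRB1 had HLA-DQA1 (47.6 kb), HLA-DRB5 and HLA-DQA2 as nearest genes without any peak. The likeness is that of presence or absence over 6 lists and nothing more.

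The other genes of the pathways, 53 in 5 lists, differed by list. All 14 genes of class I peptide loading had H3K4me3, H3K27ac and H3K4me1 at the window, and 13 had Pol II, against 62.7%, 61.4%, 59.3% and 58.4% of all coding windows. Among them TAP1 and TAP2, the peptide transporter, PSMB8 and PSMB9, subunits of the immunoproteasome, and TAPBP, the tapasin that bridges transporter and heavy chain, had all 4 marks. The TSSs of TAP1 and PSMB9 lie at chr6:32821481 and chr6:32821969, so their windows overlap and the same peaks can count for both genes. All 10 class I regulators and interferon signalling genes had H3K4me3, H3K27ac and Pol II, NLRC5 and IRF1 included, and 9 had H3K4me1. The 7 factors that bind the shared promoter module had these 4 marks in the 3 kb window, among them RFX5, RFXAP and RFXANK, although at RFXAP and NFYA H3K4me1 reached only 8 and 12 bp into it. H3K4me1 depended on the window. With 1 kb it was at 3 of 14 peptide loading genes, 5 of 10 regulators and 2 of 7 shared factors. Among class II chains and chaperones it was then at 7 of 13. With the TSS itself inside the peak, the counts were 0, 1 and 0 against 5 for class II, and the share of all coding genes was 8.37%. No share over all coding genes was counted for 1 kb, so those counts have no background.

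Among the 13 class II chains and chaperones, 7 had H3K4me3, 5 had H3K27ac, 7 had H3K4me1, 5 had Pol II and 5 had no peak of any list. In the same order, the shares of all coding windows were 62.7%, 61.4%, 59.3%, 58.4% and 28.0%. The 5 with H3K4me3, H3K27ac and Pol II were HLA-DMA and HLA-DMB, which load peptide onto class II, CD74, the invariant chain, IFI30 and LGMN. HLA-DPB1 had H3K4me3 and H3K4me1, HLA-DQB1 had H3K4me3 alone and HLA-DOA had H3K4me1 alone. The 5 without a peak were HLA-DRB5, HLA-DQA1, HLA-DPA1, HLA-DOB and CTSS. None of HLA-DRA, HLA-DRB1, HLA-DRB5, HLA-DQA1, HLA-DQB1, HLA-DPA1 and HLA-DPB1, which encode chains that present peptide, had Pol II at its window. Pol II was at 58.4% of all coding windows, and these few genes of 1 cluster were not tested against them. Of the 9 class I related genes, MICA, MICB, HFE and MR1 had the 4 marks, and the 5 CD1 genes had none of them, CD1B having CTCF. No pathway gene had p300/CBP (0.769% of all windows) and 7 of 53 had CTCF (17.6%), both near the background.

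**Figure D4:**
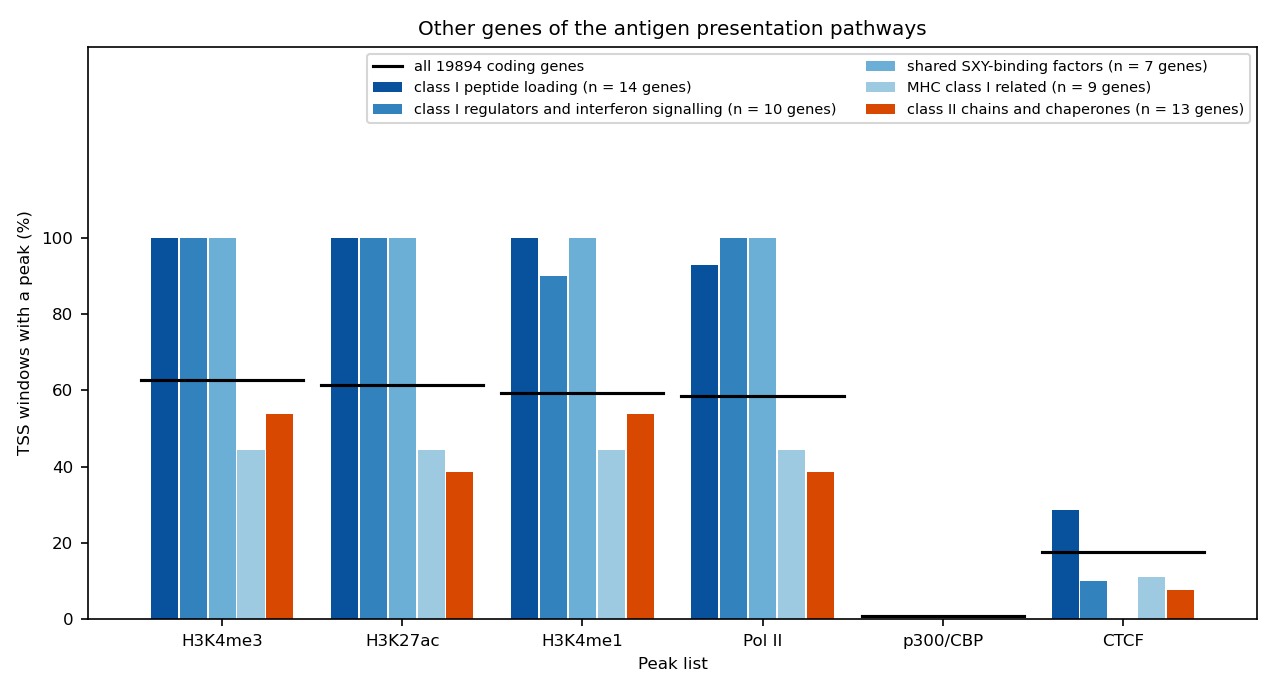
Percent of TSS windows with a peak (vertical axis) in each of the 6 lists, for 5 lists of pathway genes that are not members (bars) and for all 19894 coding genes (black lines). Class I peptide loading, regulators and shared factors reach 90% to 100% for the histone marks and Pol II, whereas class II chains and chaperones, 13 genes, and class I related genes, 9 genes, lie under the black lines there.

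The lists come from uniquely mapped reads, so the share of each member that could give such reads was counted as 50-base words that occur once in GRCh37 on either strand. In the TSS windows this share was 100% for B2M, 98.7% for CIITA, 97.9% for HLA-G, 96.6% for HLA-B, 95.5% for HLA-C, 94.7% for HLA-E, 93.8% for HLA-DRB1, 92.6% for HLA-DRA and 91.4% for HLA-F. Over all coding windows the median was 99.2% and the lower quartile 95.8%, and 9.20% of windows were under 90%. HLA-F, the lowest, had all of H3K4me3, H3K27ac and Pol II, and HLA-G, the highest of the HLA genes, had none of them. HLA-DRB1, without any peak, was under the lower quartile, as were HLA-C, HLA-E, HLA-F and HLA-DRA. With 20 kb flanks its share was 90.1%, against 89.3% for HLA-C and 87.1% for HLA-E.

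Copies of the repeated words were looked for in the MHC. Every repeated word in the windows of HLA-B, HLA-C and HLA-G had another copy in the MHC, and so had 91.4% of those of HLA-DRB1, 31.7% of those of HLA-F, 29.6% of those of HLA-DRA and 7.55% of those of HLA-E. Bases inside peaks were more often unique than bases outside them in the gene with flanks, for instance 96.5% against 88.7% at HLA-C, 95.9% against 83.0% at HLA-E and 97.5% against 96.2% at HLA-B. Peaks made from unique reads tend to lie on unique sequence by construction, so nothing is read from this difference. The read length is not given in the sources used here, and with 36-base words the windows ranged from 84.1% (HLA-DRB1) to 99.1% (B2M). These counts are of the reference sequence and not of the alleles that MDA-MB-231 carries. The part of mapping in the missing peaks was not tested.

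**Figure D5:**
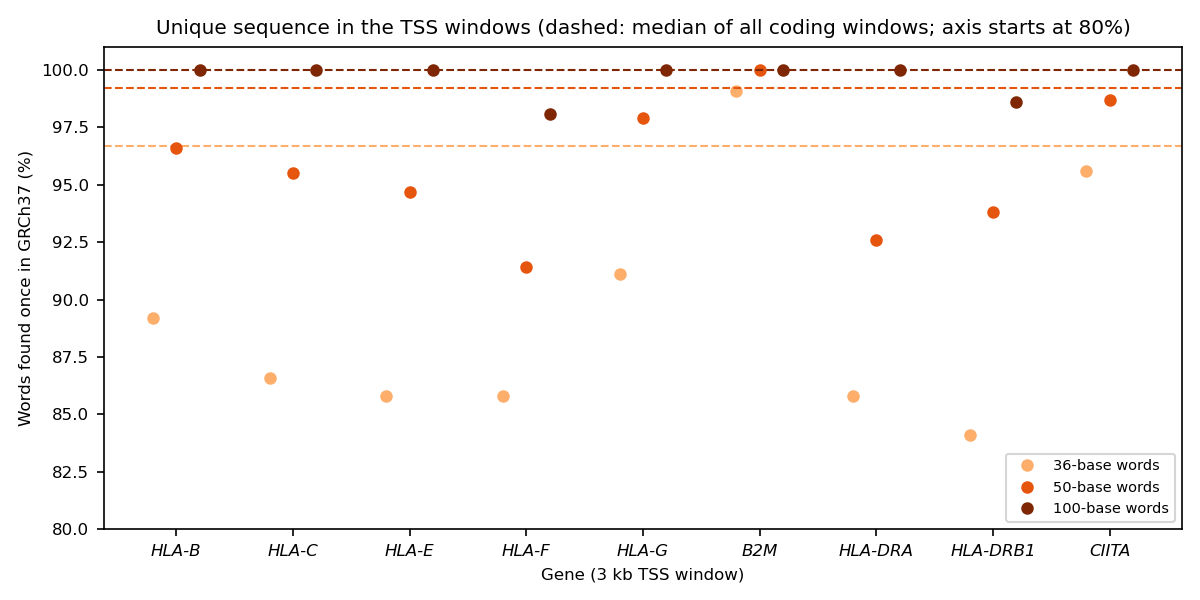
Percent of words found once in GRCh37 (vertical axis, from 80%) in the 3 kb TSS window of each member, for words of 36, 50 and 100 bases; dashed lines are the medians of all coding windows for each word length. With 50-base words the members lie between 91.4% (HLA-F) and 100% (B2M), and 8 of 9 lie under the median of 99.2%.

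Peaks could be listed in the MHC and were dense there. It held 35.6 H3K4me3 peaks per Mb against 7.18 on the rest of chromosome 6, 38.0 against 6.76 for Pol II, 37.6 against 13.6 for H3K27ac and 75.4 against 28.8 for H3K4me1, but 3.00 against 3.70 for p300/CBP. The lists named 0 peaks on alternate haplotypes. As a check of the cell line, VIM, CD44, CAV1, EGFR and FOSL1 had H3K4me3, H3K27ac, H3K4me1 and Pol II at their windows, and ESR1 and GATA3 had no peak. The luminal marker FOXA1 had the 4 marks, against the label of a line that should lack it, and PGR had H3K4me3 alone. Of 7 leukocyte genes, 0 had H3K4me3, H3K27ac or Pol II and 5 had H3K4me1.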

How the data were processed

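ChIP-seq had been done in MDA-MB-231 cells. Per the study's methods, the authors aligned reads to hg19 with BWA-backtrack (the submitters' processing notes name Bowtie2), used PASHA to turn unique reads into a binned signal (50 bp), pooled replicate signals and thresholded them with a minimum run and a maximum gap per antibody. The histone marks and p300/CBP were scaled and background-subtracted, Pol II was scaled and CTCF was neither. The deposited files hold peak positions in bp and no other value, so depth is unknown.

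Here, positions were compared with GENCODE release 44 on GRCh37 (1 canonical TSS per coding gene) in Python 3.11.15 with NumPy 2.4.6 and SciPy 1.17.1; figures used matplotlib 3.10.9. Since starts and ends all fall 1 past multiples of 50, a listed end was read as lying just outside its peak. Interval functions were tested on simulated data (0 wrong answers in 3600 comparisons). The number of value columns left unmapped was 0. Shares have 95% Wilson intervals. The members and the gene lists were chosen with earlier results of these data known. All members are named; of the pathway genes, those listed by name in the design are, and the rest are given by counts, with MICA, MICB, HFE, MR1, the CD1 genes, CTSS, IFI30, LGMN and NFYA named after their values were seen. Some promoter sequences, their motif matches and 1 named pathway gene are not reported here. Alternatives changed the window, the TSS, the overlap, the width kept, the flank, the word length and the motif stretch.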

Additional observations from a re-analysis of the deposited data

How the results depend on the processing

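No paired analysis was possible because each antibody has 1 list from merged replicates, which also means that no library could be left out. The limits of these lists are that they hold no heights, that a peak's absence means only that the signal stayed under a threshold or run length, and that depth cannot be read from them. Of 202 alternative values for counts over the classes and all pathway genes, shares of the MHC, motif counts and unique shares of single members, 131 stayed within the range set for the original value and 71 did not, and of 180 values for the 5 pathway lists taken singly 27 moved. The cause was not tested beyond what each setting removes or adds by construction.

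Dropping peaks narrower than their list's median width lowered the class I windows to 2 of 5 for H3K27ac, 2 for H3K4me1, 1 for Pol II (HLA-E) and 0 for CTCF. The class II windows fell to 1 of 3 for H3K27ac, 1 for H3K4me1 and 0 for Pol II. Width is not signal height, so the setting does not show what a stricter threshold would have left. The pathway genes with Pol II fell from 39 to 25. Over bodies, class I kept 2 for H3K27ac, 2 for H3K4me1, 1 for Pol II and 2 for CTCF, and class II kept 1 for H3K27ac, 1 for H3K4me1 and 0 for p300/CBP. With 20 kb flanks this setting left class I 6 H3K4me3, 4 H3K27ac, 7 H3K4me1, 2 Pol II, 0 p300/CBP and 9 CTCF peaks, and class II 3 H3K27ac, 6 H3K4me1, 3 Pol II and 0 p300/CBP peaks.

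A 1 kb window left H3K4me1 at 2 class I genes and at 18 pathway genes, and Pol II at 0 class II genes. With the TSS itself inside the peak, the class I counts were 0 for H3K4me1 and 0 for CTCF, the class II counts were 1 for H3K4me3, 1 for H3K27ac and 0 for Pol II, and the pathway counts were 7 for H3K4me1 and 3 for CTCF. With the peak centre inside the window, class II had 1 for H3K4me3 and 0 for Pol II, and the pathway genes had 27 for H3K4me1. With any basic TSS, class I CTCF rose to 2. With bodies limited to the canonical transcript, a setting chosen after seeing the data, class I CTCF bodies were 2 and class II p300/CBP bodies 0.

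With 50 kb flanks, class I had 20 H3K4me3, 19 H3K27ac, 39 H3K4me1, 12 Pol II and 22 CTCF peaks, class II had 20 H3K4me1 and 9 CTCF peaks, and with 10 kb flanks class I had 13 H3K4me1 peaks. With the first 1 Mb of the MHC stretch left out, the share of chromosome 6 peaks was 10.3% for H3K4me3, 6.54% for H3K27ac and 6.39% for H3K4me1. With 150 bases before the TSS, class I matches were 0 for the strict interferon response pattern and 1 for the NF-κB pattern.

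With 36-base words the unique share of the windows was 89.2% (HLA-B), 86.6% (HLA-C), 85.8% (HLA-E, HLA-F and HLA-DRA), 91.1% (HLA-G), 99.1% (B2M), 84.1% (HLA-DRB1) and 95.6% (CIITA). With 100-base words it was 98.1% (HLA-F), 98.6% (HLA-DRB1) and 100% for HLA-B, HLA-C, HLA-E, HLA-G, HLA-DRA and CIITA. HLA-DRB1 had no peak in its TSS window under any window, overlap or TSS setting, but none of these settings could have found one. Its nearest peak lay 20.3 kb from its only basic TSS, and the widest window was 5 kb.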
